A study of Mus musculus with 6 samples.

Results

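Gap junction connexins were followed in lung tumors of mice with a floxed Ror1 gene, starting from Gjb6, which was picked because its signal was much lower in the samples labelled tamoxifen on every array. The other 6 genes are relatives from the same family: Gjb2, Gjb5, Gja1, Gja4, Gja5 and Gjc1. All 7 were found by their gene name among the non-control spots, out of 36870 gene names on the array, and 6 of them passed the filter on dim probes, out of 20476 genes that did. Gjb6 was therefore chosen by the contrast described here, so its values are given as a description and no test of them is reported. The ratios of the other members were not the basis for choosing Gjb6, but the member list was drawn up with earlier results of these data known. Those ratios were read with p-values adjusted over all genes.

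Connexins are membrane proteins that assemble into rings called hemichannels, and 2 hemichannels of touching cells dock into a gap junction channel that lets ions, ATP, second messengers and small metabolites pass from cell to cell. Beta connexins are typical of epithelia, and alpha and gamma connexins of heart, vessel wall and nervous tissue, with wide overlap. In the alveolus, gap junctions join epithelial cells to one another and also join endothelial cells, and they carry calcium signals along the septum.

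The samples came from lung tumors of C57BL/6J mice that carried floxed Ror1 alleles (Ror1f/f), a tamoxifen-inducible Cre recombinase under the ubiquitous CAG promoter (CAG-CreER) and a mutant human EGFR transgene under the surfactant protein C promoter (SPC-hEGFRdel746-750), which acts in alveolar epithelium. Of 6 samples, 3 came from mice given tamoxifen and 3 from mice given corn oil, and in both groups dosing lasted 4 weeks, starting at 16 weeks of age, with tumors taken at 20 weeks. Both groups carried the floxed gene, the Cre and the EGFR transgene. The title asks what conditional loss of Ror1 does in lung adenocarcinoma. A tamoxifen sample and its like-numbered oil sample shared 2 arrays, once in each assignment of the dyes Cy5 and Cy3, so there were 6 arrays in 3 couples. A couple's ratio is the mean of its 2 arrays, and a probe counts as well above background by the scanner software's own flag. Whether each number stands for a separate mouse is not in the labels, so p-values measure only the spread between these samples.

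The share of probes with signal well above background was 51.8% to 58.8%, depending on the array and channel, and 0 spots were saturated. Across genes, which are not independent replicates, dye-swapped arrays correlated with r of 0.76, 0.77 and 0.79, and the pairs of couples with r of 0.17, 0.12 and -0.02. At the brighter of its 2 probes, the targeted gene went against its label. Ror1 signal was 9.35, 9.30 and 9.17 in the samples labelled tamoxifen, against 8.77, 8.86 and 8.99 in the samples labelled oil (normalized log2 signal, the background-corrected brightness of the sample's channel averaged over its 2 arrays). Ror1 was thus higher under tamoxifen on all 6 arrays, and since the labels do not name the floxed exon, its probe may lie outside the deleted part and then checks nothing. Directions below follow the labels. Markers of alveolar type 2 cells, such as Sftpc, which encodes surfactant protein C, were well above background in all 12 readings.

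Both probes that carry the name Gjb6 lie on the minus strand of chromosome 14, 1304 bases apart, in mouse build mm9. The brighter one, at chr14:57742226-57742285, gives the Gjb6 result, and the dimmer one, at chr14:57743530-57743589, is assigned to another Gjb6 transcript. The Gjb2 probe lies 24.6 kb from the brighter Gjb6 probe, at chr14:57717629-57717688. Exons of that build were not looked up here. The first 30 of the 60 bases of each probe are shown so that it is clear what was hybridised, 5′ to 3′, with no base in capitals.
Gjb6, brighter probe: ttcattggacaatatacattgccgattgct
Gjb6, dimmer probe: taccagcatagggaaggtgtggatcacggt
Gjb2: caagttgaaccattaccactatgccttatg
The longest run of bases that either Gjb6 probe shared on either strand with the 36 probes of other connexins and pannexins was 8 bases.

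Promoters were found in RefSeq for 6 of the 7 members (GRCm38.p6, a different build from that of the probes), from 250 bases before to 50 bases after a gene's start. The neighbours Gjb6 and Gjb2 are shown because they lie close together while their ratios had opposite signs. Capitals mark a hypoxia response core, ACGTG or GCGTG, searched on both strands.
Gjb6, chr14:57133562-57133861, minus strand: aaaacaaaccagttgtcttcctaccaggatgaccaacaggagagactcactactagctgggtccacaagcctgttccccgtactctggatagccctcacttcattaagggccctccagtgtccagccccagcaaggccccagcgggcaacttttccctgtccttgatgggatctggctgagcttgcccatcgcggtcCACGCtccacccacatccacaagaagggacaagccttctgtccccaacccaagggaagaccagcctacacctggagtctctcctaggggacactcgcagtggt
Gjb2, chr14:57104653-57104952, minus strand: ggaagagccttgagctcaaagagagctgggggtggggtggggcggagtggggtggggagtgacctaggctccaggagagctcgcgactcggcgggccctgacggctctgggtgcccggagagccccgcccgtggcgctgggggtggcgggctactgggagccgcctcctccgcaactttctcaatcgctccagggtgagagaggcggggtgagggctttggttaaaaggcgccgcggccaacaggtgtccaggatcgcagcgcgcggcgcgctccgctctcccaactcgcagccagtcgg
The Gjb6 window had a GC content of 57.3% and 6 CpG, against 70.0% and 27 CpG in the Gjb2 window. Over 32851 promoters of this length the median GC content was 52.7% with 7 CpG. The Gjb6 window held 1 hypoxia response core and Gjb2 none, and 43.8% of all promoters held one. The GC box GGGCGG, which shares no letters with a core match here, occurred 2 times in the Gjb2 window and not in that of Gjb6, and 35.7% of all promoters held it. The TATA box TATAAA was in neither window and in 13.6% of all promoters. These matches describe letters only.

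Gjb6, or Cx30, forms the channels of cochlear supporting cells, astrocytes and epidermis, often together with Gjb2. Its normalized log2 signal was 8.71, 9.18 and 9.66 in tamoxifen samples 1, 2 and 3, against 10.49, 10.35 and 11.35 in oil samples 1, 2 and 3. Every tamoxifen sample lay below every oil sample. The mean was 9.18 ± 0.48 in tamoxifen samples and 10.73 ± 0.54 in oil samples (SD, n = 3 each). Couples 1, 2 and 3 had log2 ratios (tamoxifen over oil) of -1.79, -1.18 and -1.69, averaging -1.55 ± 0.33 (SD, n = 3 couples). That is 34.1% of the oil level, or 2.93-fold lower. In bulk tumor RNA, fewer cells that express a gene and less of its RNA per cell cannot be told apart.

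The dye swaps gave close values for Gjb6. With tamoxifen in Cy5 the log2 ratio was -1.88, -1.20 and -1.81 in couples 1, 2 and 3, and with tamoxifen in Cy3 it was -1.69, -1.16 and -1.57. Couple 2 had the ratio nearest to 0 in both orientations. The raw mean signals of couple 3 were 1053 for tamoxifen and 1909 for oil with tamoxifen in Cy5, and 555.1 for tamoxifen and 3575 for oil with tamoxifen in Cy3. In couple 2 with tamoxifen in Cy5 the raw signals were nearly level, at 946 for tamoxifen and 927.2 for oil, before the dyes were normalized to each other. The local background of this probe lay between 36 and 85, far below its signals.

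Of the 20476 genes tested, 8 had a lower ratio than Gjb6: Mc5r, Corin, Gm14569, Bcan, Cox6a2, Chia1, Bcl2l15 and Serpinb5, from -2.02 to -1.58. The next gene above it was Prmt8, at -1.53. Over all genes, 5% lay below -0.29 and 5% above 0.25, with a median of -0.0038. The dimmer Gjb6 probe was not well above background in any of the 6 tamoxifen readings and was above it in 4 of 6 oil readings. Its signal was 6.32, 6.18 and 6.30 in tamoxifen samples, against 6.50, 6.47 and 6.85 in oil samples. These groups did not overlap, but the probe failed the filter. At this probe tamoxifen has only a bound, and the oil mean was 1.26-fold above it. That oil mean includes readings not well above background, so 1.26 is not a firm lower limit. The measured log2 ratio was -0.34 ± 0.19 (SD, n = 3 couples) and lay below 0 on all 6 arrays.

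**Figure D1:**
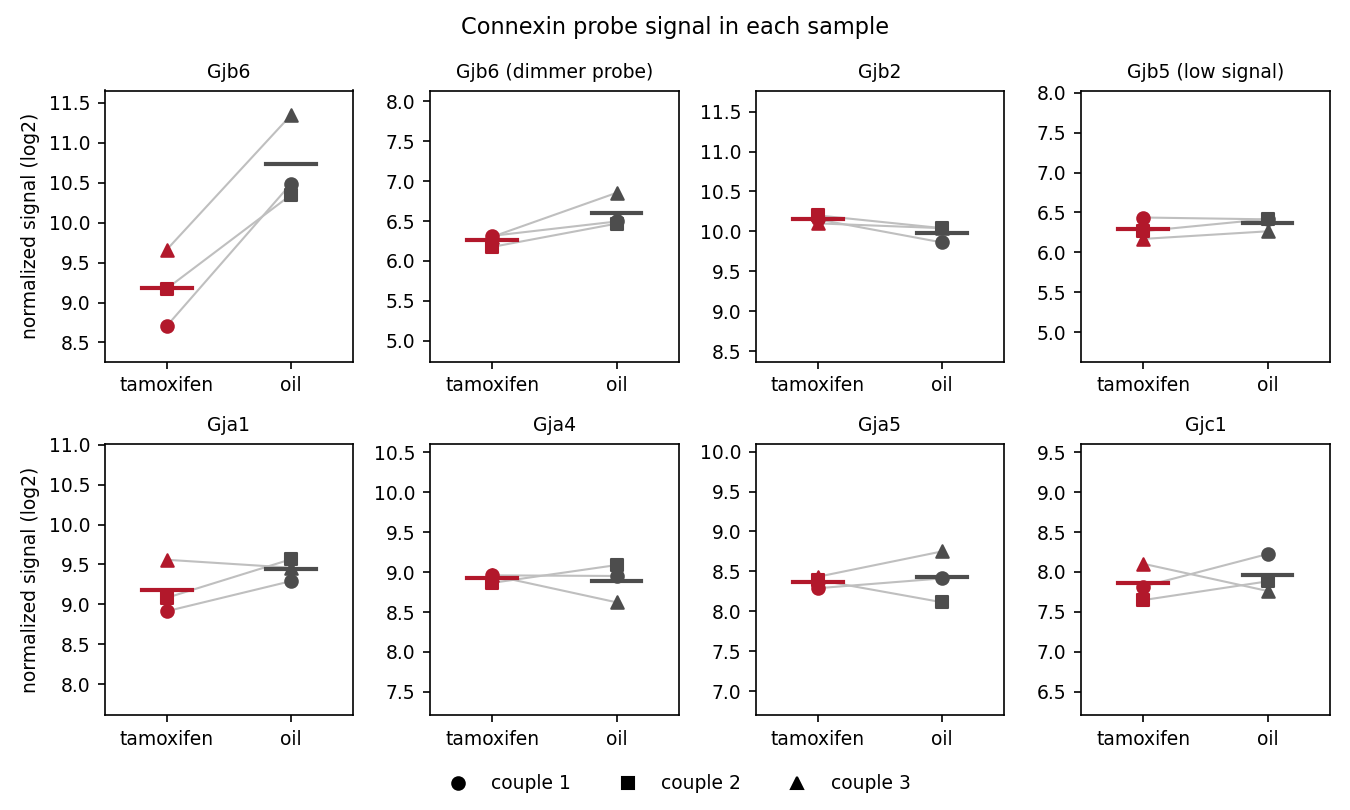
Normalized log2 signal of the connexin probes in each sample, with tamoxifen left of oil in each panel; lines join a couple, horizontal bars are group means, and all vertical axes span the same length. Gjb6 lies between 8.71 and 9.66 in tamoxifen samples and between 10.35 and 11.35 in oil samples, while the groups lie close together or overlap in the other members.

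Gjb2, or Cx26, is the epithelial connexin that pairs with Gjb6 in mixed channels of the inner ear, and it is the nearest connexin gene to it. Its signal was 10.15, 10.20 and 10.10 in tamoxifen samples, against 9.86, 10.04 and 10.04 in oil samples. Every tamoxifen sample lay slightly above every oil sample. The log2 ratio was 0.29, 0.16 and 0.06 in couples 1, 2 and 3, and it lay above 0 on all 6 arrays. The mean was 0.17 ± 0.12 (SD, n = 3 couples), with a 95% interval of -0.058 to 0.40 and an adjusted p of 0.71 in limma, so it did not pass the test.

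Gjb5, or Cx31.1, is a connexin of stratified epithelia and, in mouse, of placental trophoblast. Its probe, at chr4:127032665-127032724, was well above background in 1 of 6 tamoxifen readings and 2 of 6 oil readings, so it failed the filter and was not tested. Its signal was 6.44, 6.27 and 6.17 in tamoxifen samples, against 6.41, 6.42 and 6.26 in oil samples. The groups overlapped, and the log2 ratio was -0.07 ± 0.09 (SD, n = 3 couples).

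Gja1, or Cx43, is the most widely used connexin, found in ventricular heart muscle, fibroblasts, smooth muscle and alveolar epithelium. Its brightest probe, at chr10:56109814-56109873, read 8.92, 9.08 and 9.56 in tamoxifen samples, against 9.29, 9.57 and 9.46 in oil samples. The groups overlapped, as tamoxifen was lower in couples 1 and 2 and slightly higher in couple 3. Couples 1, 2 and 3 had log2 ratios of -0.38, -0.48 and 0.10, averaging -0.25 ± 0.31 (SD, n = 3 couples). The 95% interval was -0.62 to 0.11 and the adjusted p in limma was 0.72. The array holds 8 probes named Gja1, of which 4 passed the filter. Of the other passing probes, one had ratios of -0.12, -0.33 and 0.19 in couples 1, 2 and 3 and another 0.01, -0.37 and 0.06, so both changed sign between couples. The last, with a mean of -0.17, was well above background in 1 of 6 tamoxifen readings and 4 of 6 oil readings, and so passed the filter only through oil.

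Gja4 (Cx37) and Gja5 (Cx40) are connexins of endothelium, the second mainly arterial. The Gja4 probe, at chr4:126988848-126988907, read 8.96, 8.87 and 8.96 in tamoxifen samples, against 8.95, 9.09 and 8.62 in oil samples. Its log2 ratio was 0.04 ± 0.28 (SD, n = 3 couples), with a 95% interval of -0.30 to 0.38 and an adjusted p in limma of 0.95. The couples disagreed in sign, with 0.01, -0.22 and 0.34 in couples 1, 2 and 3.

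The Gja5 probe, at chr3:96857349-96857408, read 8.29, 8.39 and 8.43 in tamoxifen samples, against 8.41, 8.11 and 8.75 in oil samples. The oil samples spread on both sides of the tamoxifen samples. Its log2 ratio was -0.05 ± 0.30 (SD, n = 3 couples), with a 95% interval of -0.41 to 0.31 and an adjusted p in limma of 0.94. A second Gja5 probe that passed the filter had a ratio of 0.05 ± 0.02 (SD, n = 3 couples).

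Gjc1, or Cx45, joins vascular smooth muscle cells and cells of the cardiac conduction system. Its probe, at chr11:102661053-102661112, read 7.82, 7.65 and 8.10 in tamoxifen samples, against 8.22, 7.88 and 7.76 in oil samples. The groups overlapped, since couples 1 and 2 lay below 0 and couple 3 above it. Couples 1, 2 and 3 had log2 ratios of -0.41, -0.24 and 0.34, averaging -0.10 ± 0.39 (SD, n = 3 couples). The 95% interval was -0.53 to 0.33 and the adjusted p in limma was 0.90.

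Over all genes, limma called 0 of 20476 at an adjusted p of 0.05 (0%), and 1435 had an unadjusted p under 0.05 (7.01%), with 615 higher and 820 lower under tamoxifen. When the 6 arrays were fitted singly with the couple as a replicate block, 56 genes passed, 9 passed when a dye term was added, and 1 passed with the samples unpaired. None of the 5 tested members other than Gjb6 passed in any of these fits, and no test of Gjb6 is reported. Among the 12 tested connexins other than Gjb6, 5 had a ratio below 0 and 7 above it, with a median of 0.02, beside 51.2% below 0 over all genes. Only Gjb2 among these 12 was above 0 on all 6 arrays, where 6.06% of all genes were, and none was below 0 on all 6, where 7.19% of all genes were. Gjb6 itself was below 0 on all 6, which was the basis of its choice. In 1 of the 12, Gjb2, every tamoxifen sample was above every oil sample (5.22% of all genes), and in 1, Gjc3, every tamoxifen sample was below (7.12% of all genes).

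**Figure D2:**
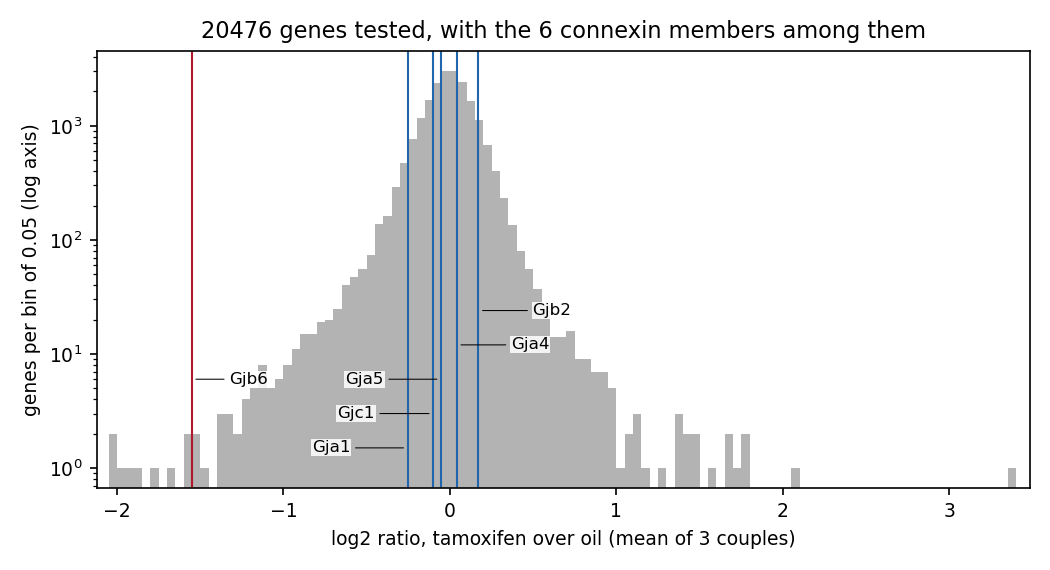
Histogram of the log2 ratio of tamoxifen over oil (mean of 3 couples) of the 20476 genes tested, on a log count axis, with lines at the 6 members tested. Gjb6 stands at -1.55, and the other 5 lie between -0.25 and 0.17, within the body of the distribution.

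The array holds 13 further connexins, and 7 of them passed the filter. The other 6 did not and have no value here. The ratio of Gjb1, the connexin of hepatocytes and myelinating Schwann cells, was 0.61, -0.15 and -0.12 (mean 0.11, adjusted p in limma 0.89).

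Gja3, a lens connexin that lies 88.69 kb from the Gjb6 probe, varied widely between couples. It read 8.51, 9.01 and 7.14 in tamoxifen samples, against 8.70, 7.74 and 8.15 in oil samples. The ratio was -0.20 in couple 1, 1.27 in couple 2 and -1.02 in couple 3, averaging 0.02 ± 1.16 (SD, n = 3 couples). Neither direction was shared.

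Gjc3, a connexin of myelinating glia, read 7.14, 7.55 and 7.40 in tamoxifen samples, against 7.63, 7.65 and 7.67 in oil samples. The groups did not overlap, but the ratio of -0.29 ± 0.19 (SD, n = 3 couples) lay below 0 on 5 of 6 arrays and missed the threshold (adjusted p in limma 0.69). Gjd3, a connexin of the cardiac conduction system, had a ratio of 0.03 ± 0.14 (SD, n = 3 couples, adjusted p in limma 0.96). Panx1, a pannexin, forms ATP-releasing channels of similar fold but does not join cells in gap junctions. Its ratio was 0.18 ± 0.17 (SD, n = 3 couples, adjusted p in limma 0.72), while Panx2 and Panx3 did not pass the filter.

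**Figure D3:**
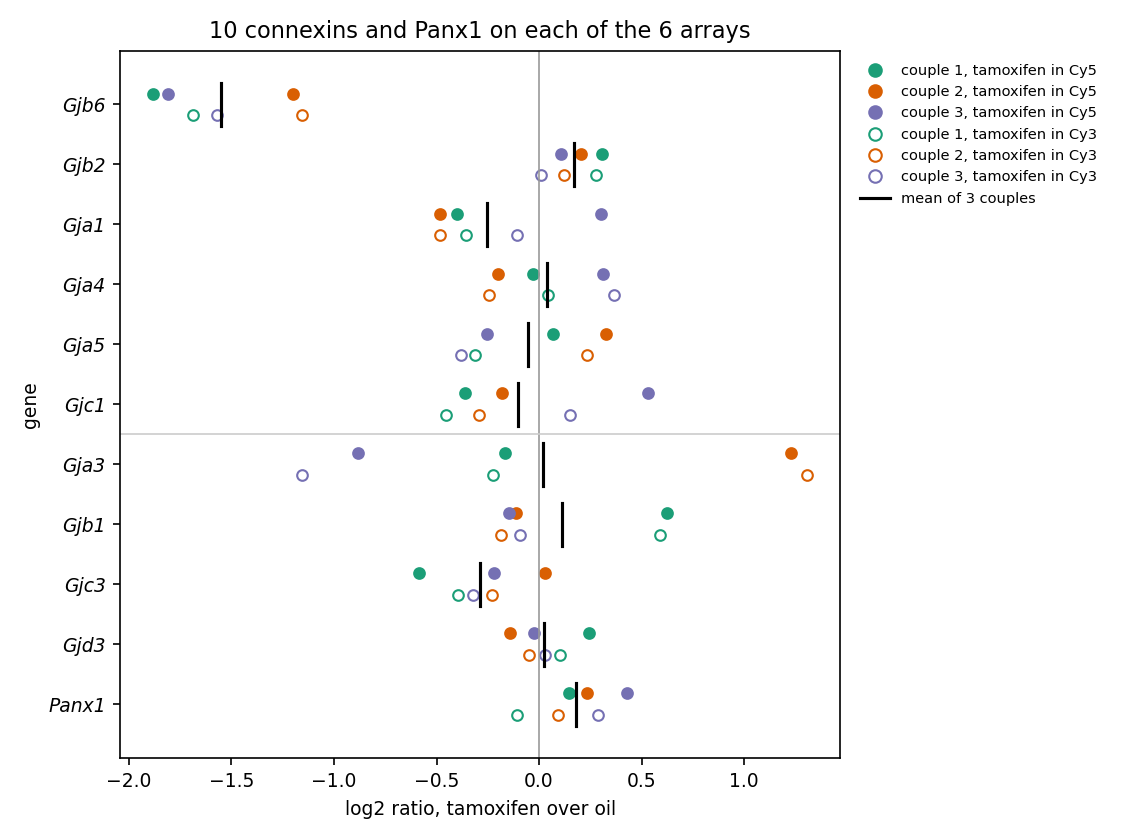
Log2 ratio of tamoxifen over oil on each of the 6 arrays for 10 of the connexins tested and Panx1; colours mark couples, filled points have tamoxifen in Cy5 and open points in Cy3, black bars are the mean of 3 couples, and a grey line divides the members (above) from the rest. Gjb6 lies between -1.88 and -1.16 on the 6 arrays, and Gja3 spreads over both sides of 0.

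Connexin partners, a list of 22 scaffold, adhesion, chaperone and kinase genes that bind, traffic or phosphorylate connexins, were all tested. Of these, 9 were below 0 and 13 above it, with a median of 0.01, and 0 passed the adjusted threshold. The lowest ratios were those of Cdh1, which encodes E-cadherin (-0.34 ± 0.20, adjusted p in limma 0.69), and Prkaca, a catalytic subunit of protein kinase A (-0.23 ± 0.14, adjusted p in limma 0.69). Cdh1 read 12.05, 11.83 and 12.17 in tamoxifen samples, against 12.40, 12.37 and 12.31 in oil samples, with no overlap. In 3 of the 22 partners, Cdh1 among them, every tamoxifen sample lay below every oil sample (7.12% of all genes). In 0 of the 22 every tamoxifen sample lay above (5.22% of all genes). Among the highest was Cdh2, which encodes N-cadherin (0.16 ± 0.06, adjusted p in limma 0.70). These errors are SDs over 3 couples.

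Genes around Gjb6 on chromosome 14 did not share its low ratio. Within 1 Mb of its probe the array has 48 gene names, of which 32 were tested. Their ratios lay between -0.23 (Sap18) and 0.30 (Eef1akmt1), 10 below 0 and 22 above it, with a median of 0.12, and 0 passed the adjusted threshold. The nearest tested gene, Gm10871, at 22.79 kb, had a ratio of -0.06 ± 0.12. Cryl1, a crystallin-like dehydrogenase on the other side at 151.8 kb, had 0.23 ± 0.21 (both SD, n = 3 couples). An unadjusted p under 0.05 was reached by 5 of the 32 genes (7.01% of all genes in either direction), Zmym2, Ift88, Eef1akmt1, Xpo4 and Micu2, all with ratios above 0 and with adjusted p-values in limma of 0.69. Fgf9, a growth factor of the lung mesothelium and epithelium, varied as widely as Gja3, with 1.34, 0.20 and -1.20 in couples 1, 2 and 3.

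**Figure D4:**
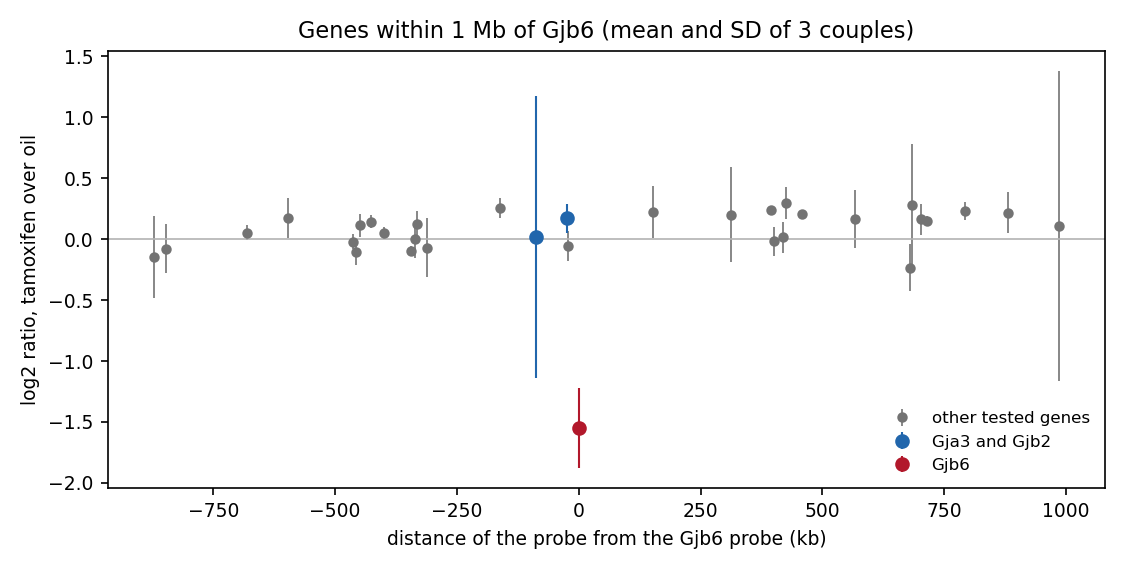
Log2 ratio of tamoxifen over oil (mean and SD of 3 couples) of the tested genes within 1 Mb of the Gjb6 probe, by distance in kb. Gjb6 stands at -1.55, and the 32 others lie between -0.23 and 0.30.

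The genes whose 6 array ratios were nearest to those of Gjb6, by the root mean square difference in log2 units, were Col6a1 (0.23), Ly6d (0.36), Fxyd4 (0.40), Cox6a2 (0.47) and C6 (0.49), where the median over 20475 genes was 1.59. Each was thus selected by the same ratios, which carry no test. Col6a1 encodes a chain of collagen VI, Ly6d a small membrane-anchored protein of epithelial and B-lineage cells, Fxyd4 a regulator of the sodium pump, Cox6a2 the muscle form of a cytochrome c oxidase subunit and C6 a complement component. Col6a1 read 10.86, 11.57 and 11.66 in tamoxifen samples, against 12.49, 12.67 and 13.02 in oil samples, with a ratio of -1.37 ± 0.27 (SD, n = 3 couples). Its samples did not overlap, and like Gjb6 it had its ratio nearest to 0 in couple 2. The ratios of Ly6d, Fxyd4 and C6 were also nearest to 0 in couple 2, at -0.65, -0.54 and -0.47. Cox6a2 was even across couples, at -1.65, -1.87 and -2.07.

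**Figure D5:**
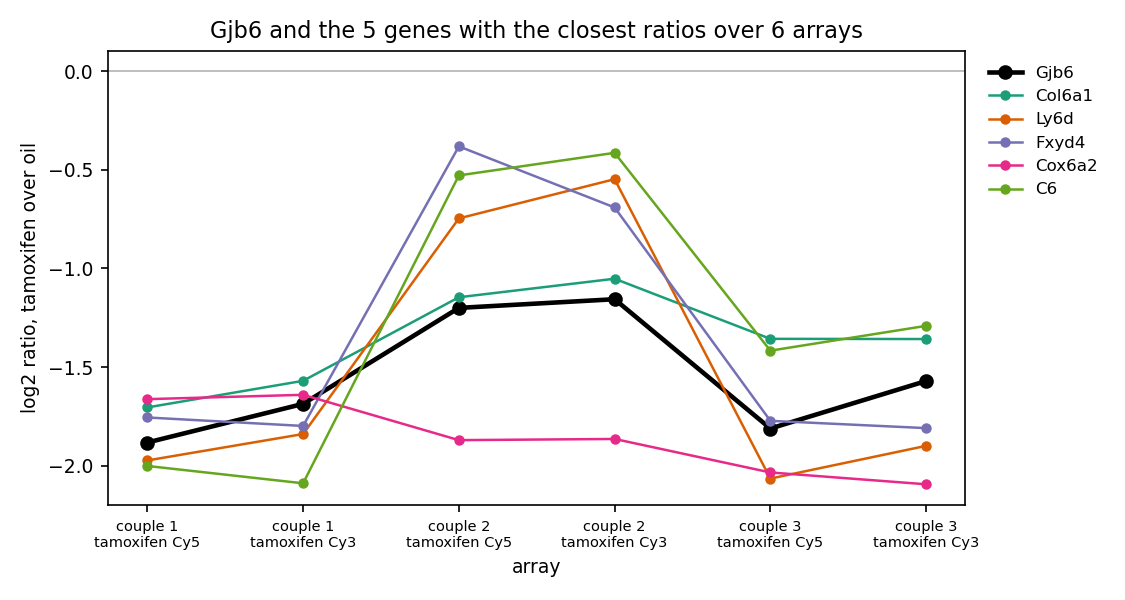
Log2 ratio of tamoxifen over oil on each of the 6 arrays for Gjb6 (black) and the 5 genes with the nearest ratios. All values lie below 0, and every gene but Cox6a2 is nearest to 0 in couple 2.

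Cell type markers stood beside these values as follows. Of 9 alveolar type 2 markers, 8 had ratios below 0, from Napsa (-0.86 ± 1.07, adjusted p in limma 0.70) to Etv5 (0.11 ± 0.40, adjusted p in limma 0.89). The log2 of their summed signal was 19.18 to 19.19 in tamoxifen samples, against 19.44 to 19.50 in oil samples, which do not overlap. In 4 of the 9, every tamoxifen sample lay below every oil sample (7.12% of all genes), though none passed the adjusted threshold. Of 7 alveolar type 1 markers 4 were below 0, from Aqp5, a water channel (-0.84 ± 0.29, adjusted p in limma 0.67), to Pdpn (0.40 ± 0.59, adjusted p in limma 0.73), with sums of 16.68 to 17.07 in tamoxifen samples, against 16.88 to 17.14 in oil samples. The part of either in the Gjb6 ratio was not tested.

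Basal and squamous markers are of interest because Gjb6 is used in stratified epithelia. Of 10, 6 were tested, and Krt15, Krt13, Krt4 and Dsg3 failed the filter. Of the 6, 3 were below 0, from Ivl, a cornified envelope protein (-0.23 ± 0.12), to Krt5 (0.04 ± 0.09). Their summed log2 signal was 12.15 to 12.28 in tamoxifen samples, against 12.19 to 12.22 in oil samples. This sum is carried mostly by the bright Trp63 probe, which read 11.96 to 12.10 in tamoxifen samples, against 11.99 to 12.02 in oil samples. Ivl was well above background in 1 of 6 tamoxifen readings and 4 of 6 oil readings. Krt14 was so in 3 of 6 tamoxifen readings and 4 of 6 oil readings. For Krt5 it was 4 of 6 tamoxifen readings and 1 of 6 oil readings. Each of these genes thus passed the filter only through the group where it was higher.

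Vessel wall markers bear on Gja4, Gja5 and Gjc1. All 7 endothelial markers had mean ratios above 0, from Pecam1 (0.01 ± 0.20) to Cldn5 (0.32 ± 0.52). Their sums were 12.79 to 12.99 in tamoxifen samples, against 12.61 to 12.90 in oil samples. The couples differed, with median ratios of -0.16, 0.08 and 0.19 in couples 1, 2 and 3. None of the 7 was above 0 on all 6 arrays (6.06% of all genes). Of 6 arterial markers 4 were below 0, from Cxcl12 (-0.33 ± 0.70) to Bmx (0.27 ± 0.88), with sums of 12.06 to 12.54 in tamoxifen samples, against 12.29 to 12.60 in oil samples. All 6 smooth muscle markers had mean ratios below 0, from Actg2 (-0.15 ± 0.15) to Tagln (-0.01 ± 0.13). Their sums were 13.43 to 13.67 in tamoxifen samples, against 13.50 to 13.74 in oil samples. None of the 6 was below 0 on all 6 arrays (7.19% of all genes). The sums of all these lists overlapped between groups, and none of their genes passed the adjusted threshold.

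Markers of other cells that use Gja1 were measured too. Of 6 fibroblast markers 5 were below 0, from Col1a2 (-0.32 ± 0.24) to Dcn (0.38 ± 1.16), with sums of 13.76 to 14.52 in tamoxifen samples, against 14.01 to 14.63 in oil samples. All 7 tested heart muscle markers had mean ratios below 0, from Myh6 (-0.73 ± 1.60) to Actc1 (-0.01 ± 0.04). Their sums were 10.57 to 10.72 in tamoxifen samples, against 10.65 to 11.33 in oil samples. For Tnni3 the scanner flag marked 3 tamoxifen and 5 oil readings as well above background, and for Myl7 3 and 6. Tnni3 and Myl7 thus entered the list only through oil, where they were higher, so the count of 7 depends partly on the filter. The 3 tested mesothelial markers were below 0, from Msln (-0.48 ± 0.78) to Wt1 (-0.14 ± 0.06), with sums of 9.28 to 9.43 in tamoxifen samples, against 9.18 to 10.50 in oil samples. The sums of these 3 lists overlapped between groups, and the part of these cells in the connexin values was not tested.

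Markers of airway cells and alveolar macrophages were measured as well. All 4 club cell markers had mean ratios below 0, from Scgb1a1 (-0.19 ± 1.42) to Cyp2f2 (-0.02 ± 0.97). Their sums were 13.28 to 16.06 in tamoxifen samples, against 14.31 to 16.19 in oil samples. None of the 4 was below 0 on all 6 arrays (7.19% of all genes). Of 3 tested ciliated cell markers 2 were below 0, from Tekt1 (-0.21 ± 0.15) to Rsph1 (0.01 ± 0.01), with sums of 8.14 to 8.72 in tamoxifen samples, against 8.30 to 8.78 in oil samples. Of 5 alveolar macrophage markers 4 were below 0, from Marco, a scavenger receptor (-0.997 ± 2.70), to Plin2 (0.01 ± 0.35), with sums of 15.50 to 17.61 in tamoxifen samples, against 16.14 to 17.17 in oil samples. Marco alone had ratios of -2.05, 2.07 and -3.01 in couples 1, 2 and 3. It was highest in couple 2, where Gjb6 was nearest to 0 (-1.79, -1.18 and -1.69), and its part in the Gjb6 ratio was not tested. Errors of the marker ratios are SDs over 3 couples, and 0 of these markers passed the adjusted threshold.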

How the data were processed

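RNA of 3 tamoxifen and 3 oil samples was read on 6 two-colour arrays of 1 slide in 1 scan, so no batch could be tested. Per the labels' protocols, 50 ng of total RNA from a column kit was labelled with Cy3 or Cy5. The scanner files were deposited with spot intensities that are not normalized, per the file headers. They carry flags and, as a log10 value, the Cy5 to Cy3 ratio after the software's background and dye corrections, per the file headers. The submitters' processing notes name Agilent Feature Extraction 12.0.3.1. The table deposited for the series has log2 ratios of Cy5 to Cy3. Its slope on the log10 values of each array was 3.322 over 31282 probes with r of 1 and intercepts between -1e-04 and 0 (log2), which settles scale, centring and direction. Column medians for tamoxifen in Cy5 were 0.137, -0.136 and -0.064, and for oil in Cy5 0.127, -0.152 and -0.0054 (couples 1 to 3). The authors' tests are not given in the sources used here.

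Intensities were corrected with normexp (offset 50) and normalized by loess within arrays (limma 3.58.1, R 4.3.3). Control spots (3671 of 62976) had weight 0 and were then dropped, and outlier spots were left out. The brightest of the probes of a gene name stood for it. A gene was tested where at least 2 couples had that probe well above background in both their arrays, in the channel of one treatment or the other. Array ratios were turned to tamoxifen over oil and averaged per couple, which leaves 3 replicates. The offset pulls ratios of dim probes toward 0. limma (lmFit and eBayes) tested the mean ratio against 0, two-sided, with Benjamini-Hochberg adjustment over all 20476 genes and a threshold of 0.05. The number of arrays limits precision, and the median SE was 0.098. Levels per sample are single-channel log2 signals after Aquantile, averaged over dyes, and single levels are not compared between probes. The sums of marker lists add the unlogged signals of different probes. The brightest probes of a list therefore weigh most in its sum. For a bound, the dim probe was raised on each array to the lowest signal that was well above background there, unless already higher, before the group means were compared. Samples are paired by the shared number in the labels and by sharing arrays.

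Of the gene names, 22175 matched a RefSeq gene of GRCm38.p6. Named genes were the 7 members, the other connexins and pannexins, the 2 lowest and 2 highest of the partner list (none passed the threshold), the 5 genes nearest to Gjb6 over the arrays, the tested genes within 1 Mb of it, and the lowest and highest of each marker list. A few genes that the rule covers are not reported here. Further genes were named for their rank beside Gjb6, their spread or their readings above background after their values were seen. The members and lists were chosen with earlier results of these data known. The procedure was tested on simulated data. Alternatives covered background correction, normalization, the deposited ratios, the filter, the probe choice, single dye orientations, the replicate block and leaving out each couple.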

Additional observations from a re-analysis of the deposited data

How the results depend on the processing

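The count of genes past an adjusted p of 0.05 was 0 in the fit reported and in every alternative but 3. The samples share numbers because each couple shares arrays. It was 56 with the 6 arrays fitted singly and the couple as a replicate block (correlation within couples 0.64), which counts technical dye swaps, 9 with a dye term added to that block (correlation 0.89), an alternative chosen after seeing the data, and 1 with no replicate block, as 3 tamoxifen against 3 oil samples. Leaving out each couple in turn gave 0 genes each time. At an unadjusted p under 0.05 the alternatives gave 992 to 2570 genes.

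Gjb6 was below 0 in all 16 alternatives, from -1.74 to -0.946. Its choice as lower on every array largely fixed that sign in advance, so only the size of the ratio is informative. The value of -0.946 came from averaging its bright and its dim probe, and without replicate 1, 2 or 3 it was -1.74 to -1.43. Gjb2 stayed above 0 (0.111 to 0.227, adjusted p in limma 0.467 to 0.968) and Gja1 below 0 (-0.43 to -0.0868, adjusted p in limma 0.47 to 0.966). Members near 0 changed sign. Gja4 was -0.108 without replicate 3, when the range over left-out couples was -0.108 to 0.174. Gja5 was 0.0474 with only the arrays with tamoxifen in Cy5 and -0.22 to 0.0785 with a couple left out. Gjc1 was -0.321 to 0.0528 with a couple left out. None of the 5 tested members other than Gjb6 passed the threshold in any alternative, and no test of Gjb6 is reported. Of the 7 other connexins tested and Panx1, 2 kept their sign in every alternative (Gjc3 and Panx1) and 6 did not. Of 30 other neighbours, 20 kept their sign, and of the 24 marker genes at the ends of their lists, 10 did, of which Aqp5 passed the threshold with the couple as a replicate block. The alternatives moved the median of all genes to between -0.0203 and 0.0145. Signal over background leaves Gjb5, the dimmer Gjb6 probe, 6 other connexins, Panx2 and Panx3 without a test.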
